A study of Mus musculus with 35 samples.

Results

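The EGF receptor gene Egfr and the genes of 7 of its relatives among the growth factors, Hbegf, Areg, Ereg, Epgn, Tgfa, Btc and Nrg1, were followed across mouse cardiac fibroblasts (CFs) and hearts. They were chosen by gene symbol, with earlier results of these data known, and make up 8 of the 55487 genes in each of 4 tables. RNA-Seq was done on 27 CF libraries and 8 hearts to ask what the micropeptide IAMP, encoded by 4930523C07Rik, does in CFs. Primary CFs of adult mice received a scrambled siRNA (si-NC) or one of 2 siRNAs against IAMP, si-IAMP-1 or si-IAMP-2, and were left untreated or given IL-17 or TGF-β, with 3 libraries in each of the 9 groups. Hearts came from C57BL/6 mice, 8 weeks of age per the study, of which 4 were heterozygous controls (Het) and 4 IAMP knockouts (KO). The labels give 24 h of siRNA followed by 24 h of IL-17, and state no times where IL-17 was not used. All CFs, controls included, were transfected, the heart controls carry 1 mutant allele, and the KO is a CRISPR-Cas9 frameshift, which need not lower the transcript. Nothing in the labels says whether the 3 libraries of a group came from separate mice, so p-values measure the spread between these libraries, which may be technical.

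EGFR is a receptor tyrosine kinase of the cell surface that pairs with itself or with its relatives ERBB2, ERBB3 and ERBB4 and signals through RAS and the MAP kinases. Its ligands are made as membrane-anchored precursors and are released by ADAM proteases, often after an inflammatory or injury signal, and act on the same or neighbouring cells. Neuregulin 1 (Nrg1) binds ERBB3 and ERBB4 rather than EGFR, and in the heart the neuregulin of endothelial cells acts on cardiomyocytes.

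The CF libraries held 104139670 to 119232309 estimated counts and the hearts 23497027 to 23857313 counts. These are different units, so the totals do not compare sequencing depth. 4930523C07Rik fell with si-IAMP-1 and si-IAMP-2, with log2 fold changes of -2.97 and -3.69 in untreated CFs, -2.85 and -3.44 under IL-17 and -2.23 and -2.65 under TGF-β. In KO hearts it stood at 15.2 to 17.3 CPM (counts scaled to library size) against 15.9 to 18.8 CPM in Het hearts. CFs carried fibroblast genes, with Col1a1 at 3743 CPM in untreated si-NC cells, and Myh6, a defining cardiomyocyte gene, was at 0 in every untreated and IL-17 si-NC library. The cardiomyocyte list was not empty in CFs, since Tnnt2, a cardiac troponin gene, stood at 93.5 CPM in untreated si-NC cells and was lower with both siRNAs, at 44.4 and 30.01 CPM. In bulk RNA, fewer cells of a type and less RNA per cell cannot be told apart.

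Epgn, Ereg, Areg and Btc lie in this order on chromosome 5 (GRCm38, GENCODE vM21), from base 91027464 to base 91402994, and are the 4 protein-coding genes of this 375.5 kb stretch. Epgn is at chr5:91027464-91035215, Ereg at chr5:91074622-91093646 and Areg at chr5:91139599-91148432, all on the plus strand, and Btc at chr5:91357261-91402994 on the minus strand. Tgfa is at chr6:86195223-86275719 on the plus strand, Nrg1 at chr8:31814551-32884029 on the minus strand and Egfr at chr11:16752203-16918158 on the plus strand. RefSeq promoters (GRCm38.p6, a short window around the gene's start) were at hand for Egfr, Areg, Epgn, Tgfa and Btc, and 5 short motifs were sought in them. They were the cAMP response element TGACGTCA, the AP-1 element TGANTCA, the TATA box TATAAA on the gene's strand, and the hypoxia-response cores ACGTG and GCGTG, all but the TATA box on both strands. The windows below hold matches found in these promoters, and the capitals mark the match. Hypoxia cores are included because the study deals with HIF-1α, and no Ereg promoter was at hand.
Areg, cAMP response element, chr5:91139527-91139556: gggctggtccgTGACGTCAcgggcggtggc
Areg, TATA box, chr5:91139557-91139586: tccagcgggtcTATAAAagcagcaggtgct
Epgn, TATA box, chr5:91027420-91027449: gcttcgtgaaaTATAAAtggaagaaagact
Tgfa, hypoxia core, chr6:86194989-86195018: ctcctgctcaaGCGTGtcttggagaagccc
Btc, hypoxia core, chr5:91403035-91403064, minus strand: tggccctctgaGCGTGtccttgggtgtgag
Of all 32851 promoters in the table, 1.79% hold TGACGTCA, 7.81% TGANTCA, 8.32% TATAAA, 19.6% ACGTG and 32.4% GCGTG. None of the 5 motifs was found in the Egfr window, and Btc holds a further GCGTG. A match is a description of letters and not of binding.

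Epiregulin was the leading ligand transcript of CFs and HB-EGF that of hearts. Per kilobase of exon, untreated si-NC cells held Ereg at 59.2 ± 2.3 CPM, Hbegf at 27.5 ± 1.94, Tgfa at 2.58 ± 0.19, Nrg1 at 1.58 ± 0.12 and Btc at 0.487 ± 0.074 (SD, n = 3). Areg was at 0.222 and Epgn at 0.0422 CPM per kilobase, and the receptor Egfr at 9.91 ± 0.62. Ereg made up 64.6% ± 1.19 of the summed CPM per kilobase of the 7 ligands in untreated si-NC cells, 78.4% ± 0.104 under IL-17 and 48.4% ± 1.10 under TGF-β. In Het hearts Hbegf made up 91.3% ± 2.38 of that sum and Ereg 0.861% ± 0.716 (SD, n = 4). Egf, Nrg2, Nrg3 and Nrg4 are not part of it. The sum itself was 91.6 in untreated, 138.1 under IL-17 and 30.1 under TGF-β si-NC cells, and 5.50 in Het hearts, in CPM per kilobase. CFs and hearts were normalised separately and were not tested against each other.

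**Figure D1:**
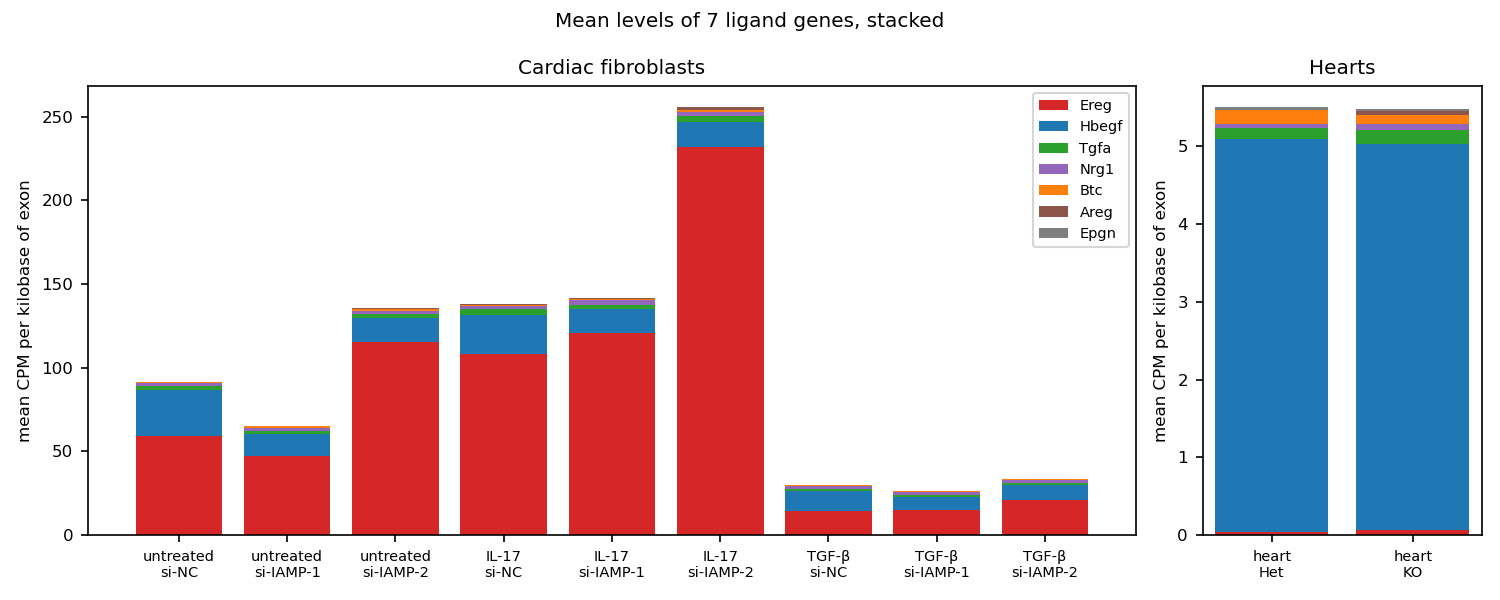
Mean CPM per kilobase of exon (y axis, linear) of the 7 ligand genes, stacked, in the 9 CF groups of 3 libraries each (left) and the 2 heart groups of 4 (right, on its own scale). Ereg fills most of the bar in CFs other than under TGF-β with si-NC, where it is 48.4% of the sum, and Hbegf fills most of it in hearts.

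**Figure D2:**
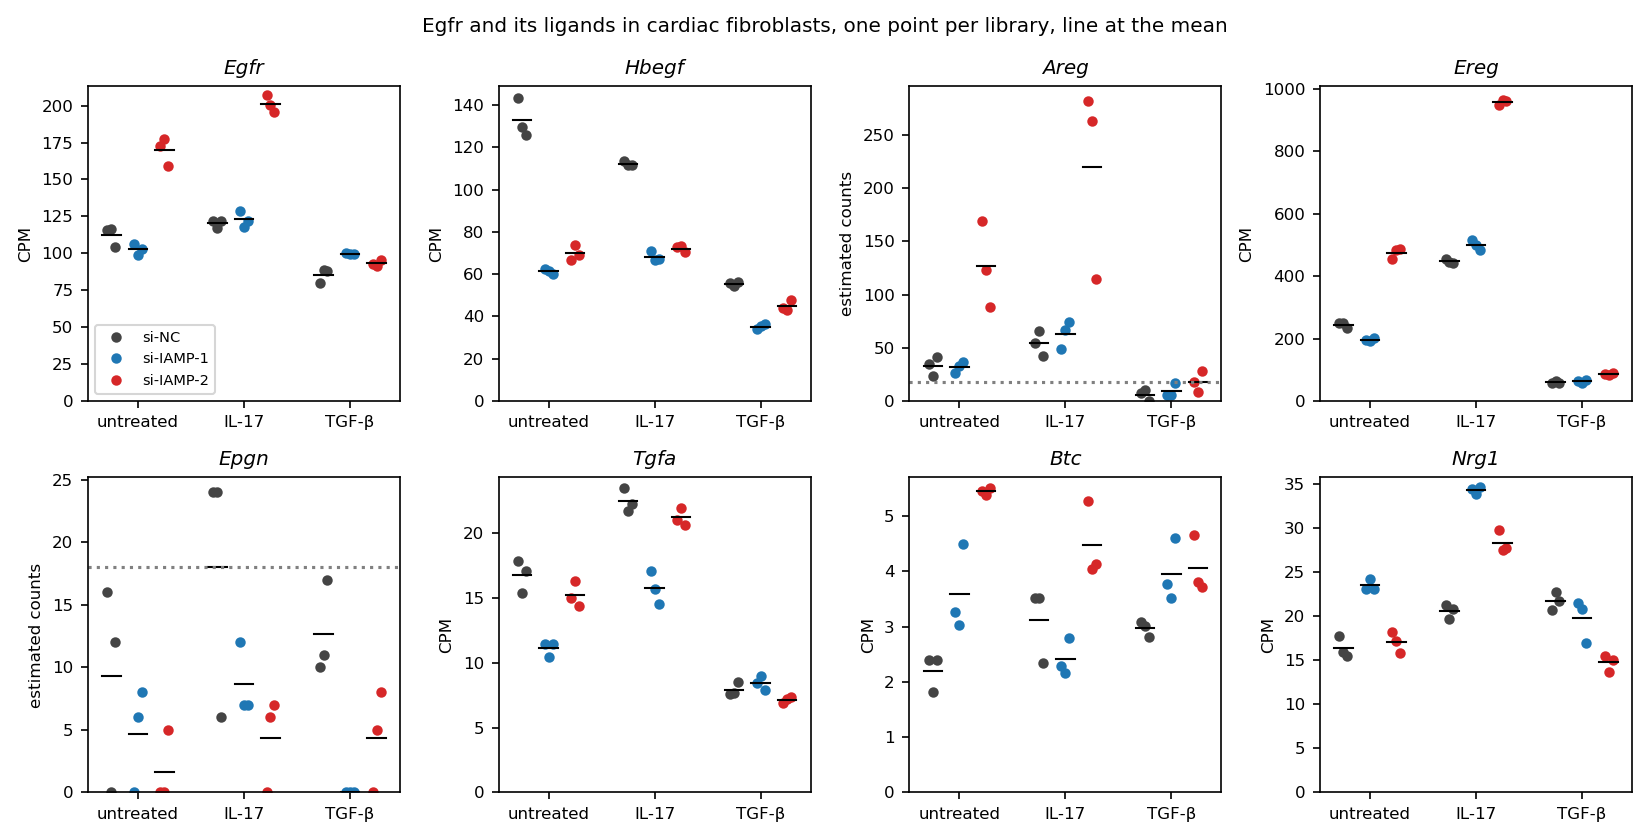
Each point is 1 CF library and each line a group mean, by stimulus (x axis) and siRNA (colour), in CPM, or in estimated counts for Areg and Epgn, where the dotted line is the floor of 18. Ereg and Egfr were highest with si-IAMP-2 under IL-17, at means of 958 and 201 CPM, and Hbegf was highest in untreated si-NC cells, at 133 CPM.

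Egfr was expressed in every CF library, between 80.2 and 207 CPM. Untreated si-NC libraries had 116, 117 and 104 CPM, si-IAMP-1 libraries 106, 98.8 and 103, and si-IAMP-2 libraries 172.5, 178 and 159. All si-IAMP-2 libraries lay above all others of the table, while the si-NC and si-IAMP-1 groups overlapped. Under IL-17 the values were 122, 117 and 122 CPM with si-NC, 129, 118 and 122 with si-IAMP-1, and 207, 201 and 196 with si-IAMP-2. Here Egfr rose with si-IAMP-2 by 0.72 ± 0.035 on the log2 scale (SE, edgeR adjusted p = 1.18e-11), and the untreated difference of 0.58 ± 0.046 fell short of the fold threshold of 1 (edgeR adjusted p = 1.26e-08). Under TGF-β the libraries ran from 80.2 to 88.5 CPM with si-NC, 99.4 to 100.4 with si-IAMP-1 and 91.2 to 95.7 with si-IAMP-2. The 3 groups did not overlap, but the differences from si-NC were small, 0.22 and 0.12 on the log2 scale, with edgeR adjusted p of 0.000578 and 0.0276. In the order of group means, IL-17 with si-IAMP-1 and IL-17 with si-NC differed by less than their SD, as did untreated si-IAMP-1 and TGF-β with si-IAMP-1.

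Ereg encodes epiregulin, a ligand of EGFR and ERBB4. Its libraries had 251, 249 and 233 CPM with si-NC in untreated cells, 194, 193 and 201 with si-IAMP-1, and 455, 484 and 487 with si-IAMP-2. Compared with si-NC, Ereg was thus lower with one siRNA and higher with the other, by -0.32 ± 0.035 and 0.94 ± 0.035 on the log2 scale, both short of the fold threshold (edgeR adjusted p = 9.28e-07 and 7.69e-13). Between the siRNAs it rose by 1.26 ± 0.035 with si-IAMP-2 (edgeR adjusted p = 5.76e-14). Under IL-17 the libraries had 454, 446 and 442 CPM with si-NC, 514, 499 and 484 with si-IAMP-1, and 949, 964 and 961 with si-IAMP-2, with no overlap between groups. Ereg rose with si-IAMP-2 by 1.08 ± 0.027 (edgeR adjusted p = 3.07e-15), a fold of 2.11, and was higher with si-IAMP-1 by 0.15 ± 0.026, short of the fold threshold of 0.585. Under TGF-β it was at 58.8, 62.8 and 58.9 CPM with si-NC, 63.2, 58.6 and 66.0 with si-IAMP-1, and 85.0, 83.7 and 89.1 with si-IAMP-2. All si-IAMP-2 libraries were again the highest, by 0.52 ± 0.048 (edgeR adjusted p = 2.59e-07), short of the threshold. In the order of the 9 group means, the lowest pair, TGF-β with si-IAMP-1 and with si-NC, differed by less than its SD, and every other neighbouring pair by more, although the libraries of IL-17 with si-IAMP-1 and of untreated si-IAMP-2 overlapped.

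Hbegf encodes heparin-binding EGF-like growth factor, a ligand of EGFR and ERBB4, and had lower values with both siRNAs. Untreated libraries had 144, 130 and 126 CPM with si-NC, 62.6, 61.5 and 60.3 with si-IAMP-1, and 66.6, 73.7 and 69.0 with si-IAMP-2. Hbegf fell by 1.12 ± 0.047 on the log2 scale with si-IAMP-1 (edgeR adjusted p = 1.14e-11), and stood at -0.95 ± 0.046 with si-IAMP-2, just short of the threshold of 1. Under IL-17 it had 114, 112 and 112 CPM with si-NC, 71.1, 66.9 and 67.0 with si-IAMP-1, and 72.8, 73.2 and 70.4 with si-IAMP-2. It fell with both siRNAs, with log2 fold changes of -0.73 ± 0.033 and -0.66 ± 0.033 (edgeR adjusted p = 1.36e-11 and 1.86e-11). Under TGF-β the libraries had 55.7, 54.4 and 56.2 CPM with si-NC, 34.0, 35.2 and 36.3 with si-IAMP-1, and 43.8, 43.2 and 48.0 with si-IAMP-2. Hbegf fell by 0.66 ± 0.051 with si-IAMP-1 (edgeR adjusted p = 5.28e-08) and stood at -0.30 ± 0.051 with si-IAMP-2, short of the threshold. In all 3 tables every knockdown library lay below every si-NC library. The middle of its order, IL-17 with si-IAMP-2, untreated si-IAMP-2 and IL-17 with si-IAMP-1, could not be separated by more than the SD.

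Tgfa, which encodes transforming growth factor α, ran from 6.90 to 23.4 CPM in CFs. In untreated cells si-NC libraries had 17.8, 15.4 and 17.0 CPM and si-IAMP-1 libraries 11.4, 10.5 and 11.4, without overlap, while si-IAMP-2 libraries, at 15.01, 16.3 and 14.3, overlapped si-NC. Under IL-17 the order was alike, with 21.6 to 23.4 CPM for si-NC, 14.5 to 17.1 for si-IAMP-1 and 20.6 to 21.9 for si-IAMP-2. The si-IAMP-1 differences were -0.60 ± 0.074 and -0.52 ± 0.064 on the log2 scale (edgeR adjusted p = 5.16e-06 and 3.49e-06), and neither reached its table's fold threshold. Under TGF-β no difference from si-NC passed an adjusted p of 0.05, with values of 0.09 ± 0.088 for si-IAMP-1 and -0.14 ± 0.089 for si-IAMP-2.

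Areg, the gene of amphiregulin and the neighbour of Ereg, was close to the floor of 18 estimated counts, which was taken as the equivalent of 3 read pairs. Untreated cells held 35, 23 and 41 estimated counts with si-NC, 26, 33 and 37 with si-IAMP-1, and 169, 123 and 88 with si-IAMP-2. Under IL-17 they held 54, 66 and 42 with si-NC, 49, 67 and 74 with si-IAMP-1, and 282, 263 and 115 with si-IAMP-2. In both tables every si-IAMP-2 library lay above all the others, and Areg rose by 2.01 ± 0.35 and by 2.08 ± 0.33 on the log2 scale (edgeR adjusted p = 0.000107 and 3.44e-05). The si-IAMP-1 differences were 0.07 ± 0.35 and 0.35 ± 0.33, and the 2 siRNAs differed from each other by 1.94 ± 0.35 and 1.73 ± 0.32 (edgeR adjusted p = 0.000175 and 0.000235). With TGF-β the 9 libraries held between 0 and 28 estimated counts, and only the third si-IAMP-2 library was above the floor.

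Epgn, the gene of epigen, gave no usable level in CFs. It was at or under the floor in 25 of the 27 libraries and at 0 in 9 of them, and the highest value was 24 estimated counts in 2 IL-17 si-NC libraries. It was called lower with si-IAMP-1 under TGF-β, where 0, 0 and 0 estimated counts stood against 10, 11 and 17 with si-NC (edgeR adjusted p = 0.0298). Both groups were at or under the floor, so no fold is given, and the call was lost with DESeq2 and when any 1 of 7 of the 9 libraries was left out, all si-NC and si-IAMP-1 libraries among them.

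Btc, the gene of betacellulin, was low, at 1.82 to 5.51 CPM. Untreated libraries had 2.40, 1.82 and 2.39 CPM with si-NC, 3.27, 3.03 and 4.49 with si-IAMP-1, and 5.45, 5.37 and 5.51 with si-IAMP-2, with no overlap between the groups. Btc rose with si-IAMP-2 by 1.29 ± 0.16 on the log2 scale (edgeR adjusted p = 2.80e-06), and was higher with si-IAMP-1 by 0.70 ± 0.16, short of the fold threshold. Under IL-17 it had 3.52, 3.51 and 2.34 CPM with si-NC, 2.29, 2.15 and 2.79 with si-IAMP-1, and 5.27, 4.05 and 4.13 with si-IAMP-2. The si-NC and si-IAMP-1 groups overlapped, and the difference of si-IAMP-2 from si-NC, 0.50 ± 0.17, was short of the threshold (edgeR adjusted p = 0.0215). Without the first or the second IL-17 si-NC library that difference passed it, with a value of up to 0.59. With TGF-β the values were 2.80 to 3.08 CPM with si-NC, 3.51 to 4.60 with si-IAMP-1 and 3.71 to 4.65 with si-IAMP-2, higher by 0.42 and 0.45 and short of the threshold.

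Nrg1 ran from 13.7 to 34.7 CPM in CFs. Untreated libraries had 17.8, 15.9 and 15.4 CPM with si-NC, 23.1, 24.2 and 23.1 with si-IAMP-1, and 18.2, 17.2 and 15.8 with si-IAMP-2. Under IL-17 they had 21.3, 19.7 and 20.8 with si-NC, 34.4, 33.8 and 34.7 with si-IAMP-1, and 29.7, 27.5 and 27.7 with si-IAMP-2. Nrg1 rose with si-IAMP-1 under IL-17 by 0.73 ± 0.053 on the log2 scale (edgeR adjusted p = 5.89e-09), and was higher with si-IAMP-2 by 0.44 ± 0.053, short of the threshold. Under TGF-β the si-NC libraries, at 20.7, 22.8 and 21.6 CPM, lay above the si-IAMP-2 libraries, at 15.5, 13.7 and 15.04, while the si-IAMP-1 libraries, at 21.5, 20.8 and 16.9, reached into the si-NC range. The si-IAMP-2 difference of -0.56 ± 0.082 was just short of the threshold of 0.585 (edgeR adjusted p = 4.96e-05) and passed it, at up to -0.59, when the first library of either group was left out.

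The members called in each table were counted beside the share of all genes called, and the 2 comparisons of a table with si-NC share the si-NC libraries. In untreated cells 1 of 7 members tested was called with si-IAMP-1 (4.76% of all genes) and 2 of 7 with si-IAMP-2 (10.7% of all genes), and 2 of 7 were higher with si-IAMP-2 than with si-IAMP-1 (2.24% of all genes were higher and 6.65% differed). Under IL-17 the counts were 2 of 8 with si-IAMP-1 (13.5%), 4 of 8 with si-IAMP-2 (21.7%) and 4 of 8, all higher, between the siRNAs (6.07% higher, 15.7% either way). These 4 were Egfr, Ereg, Areg and Btc, with differences of 0.70, 0.93, 1.73 and 0.89 on the log2 scale. Under TGF-β the counts were 2 of 8 with si-IAMP-1 (4.36%), among them Epgn, 0 with si-IAMP-2 (7.51%) and 0 between the siRNAs (3.96%). Of the 8 members, 5 and 6 were at an unadjusted p under 0.05 in the last 2 comparisons, and DESeq2 called 0 in both. No share of all genes at that unadjusted p is given beside these counts. The median log2 difference over the members tested with si-IAMP-2 was 0.58 in untreated cells, 0.47 under IL-17 and -0.01 under TGF-β. The medians over all genes were -0.02, -0.02 and 0.01. With si-IAMP-1 the member medians were -0.13, -0.18 and 0.08, and those over all genes -0.02, -0.003 and 0.0003. At an adjusted p of at most 0.05 alone stood 6 of 7 members with si-IAMP-1 and 5 of 7 with si-IAMP-2 in untreated cells. The shares of all genes given above are for the stricter rule with a fold threshold, so these 2 counts cannot be set against them.

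Markers of other cells also moved with the siRNAs. Where Ereg, Areg and Egfr were higher with si-IAMP-2, the summed CPM of the 6 macrophage markers was 72.9 to 77.6 against 56.8 to 60.8 with si-NC in untreated cells, and 75.6 to 82.6 against 56.3 to 56.6 under IL-17, without overlap. Of these 6, Csf1r, the receptor of a macrophage growth factor, rose in both tables, C1qa fell under IL-17, and none was at 0. The macrophage sum went the other way under TGF-β, where Ereg and Egfr were higher with si-IAMP-2 but short of the threshold. It was 136.4 to 140.9 CPM with si-IAMP-2 against 149.7 to 158.0 with si-NC, and C1qa fell. The 8 mesothelial and epithelial markers summed to 49.6 to 51.4 CPM with si-IAMP-2 against 62.1 to 65.3 with si-NC in untreated cells, and to 41.9 to 44.5 against 53.3 to 55.4 under IL-17. With si-IAMP-1 the macrophage sum was 57.8 to 61.0 CPM in untreated cells and 63.2 to 68.8 under IL-17, and the fibroblast sum was 11640 to 11940 in untreated cells against 8858 to 8940 with si-NC. The cardiomyocyte sum, nearly all Tnnt2, was lower with both siRNAs, as Hbegf was, at 42.2 to 47.1 and 27.8 to 32.7 CPM in untreated cells. The part of these markers in the members' results was not tested.

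**Figure D3:**
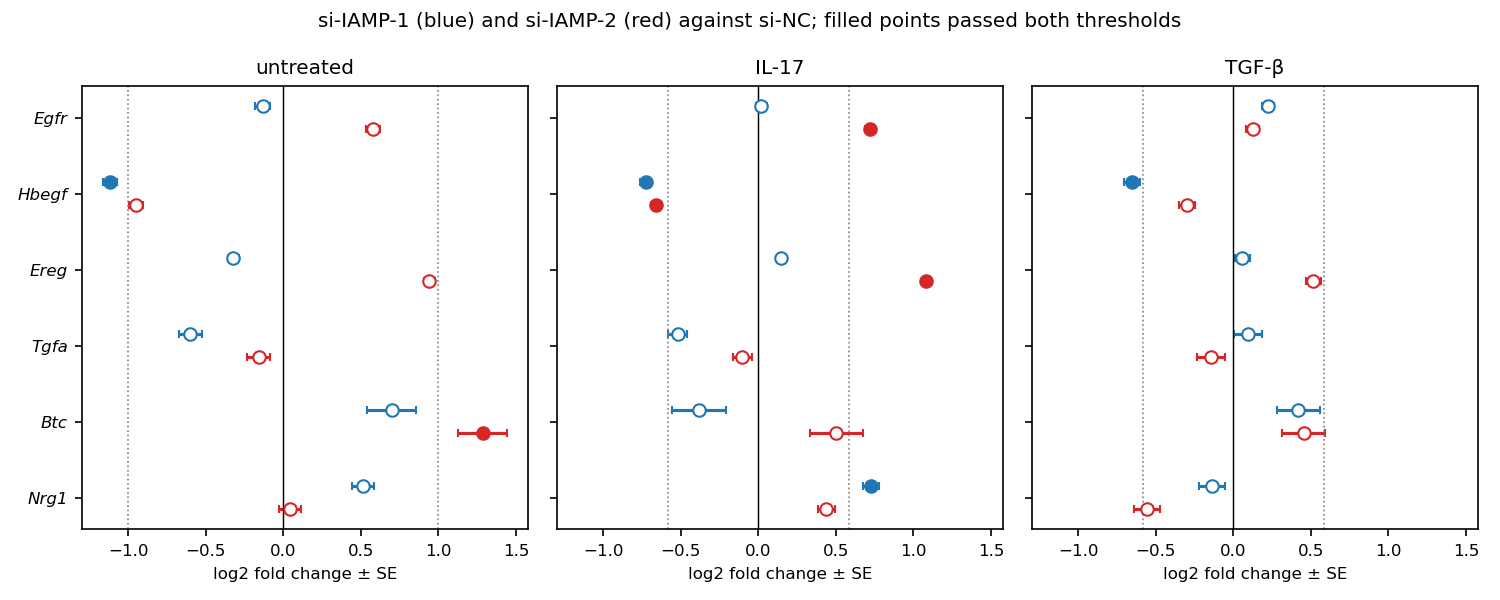
Log2 fold changes with SE of 6 members against si-NC in the 3 tables, for si-IAMP-1 (blue) and si-IAMP-2 (red). Dotted lines are the fold thresholds, 1 in untreated cells and 0.585 under IL-17 and TGF-β, and filled points passed it at an adjusted p of at most 0.05. Hbegf lies left of 0 for both siRNAs in every panel, and Ereg with si-IAMP-2 lies right of 0 in every panel.

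Whether the siRNA effect differed between stimulated and untreated cells was tested as a difference of differences. For IL-17, 1 of 8 members passed with si-IAMP-1 (0.189% of all genes, and 2.13% at an adjusted p of at most 0.05 alone) and 0 with si-IAMP-2 (0.165% and 1.89%, with 5 at an unadjusted p under 0.05 and 0 called by DESeq2). The one was Btc, whose si-IAMP-1 difference from si-NC was 0.70 in untreated cells and -0.38 under IL-17, a change of -1.08 ± 0.24 (edgeR adjusted p = 0.0132). It rests on few libraries, since the call was lost without the third untreated si-IAMP-1 library, the second untreated si-NC library, or the first or second IL-17 si-NC library, with values up to -0.89. For TGF-β no member passed with either siRNA (2.36% and 5.09% of all genes, with 5 of 8 members at an unadjusted p under 0.05 and 0 called by DESeq2 in each). At an adjusted p of at most 0.05 alone stood 5 of 8 members with each, and 19.6% and 30.2% of all genes. Hbegf's differences were smaller under TGF-β than in untreated cells by 0.46 ± 0.070 and 0.63 ± 0.070, and Nrg1's changed by -0.66 ± 0.11 and -0.62 ± 0.11, short of the threshold. The fall of 4930523C07Rik was itself smaller under TGF-β, by 0.73 with si-IAMP-1 and by 1.025 with si-IAMP-2, the latter past the threshold. The part of this weaker knockdown in the members' results was not tested. No share of all genes is given beside the counts at an unadjusted p.

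IL-17 alone was followed in the si-NC cells. No member passed the fold threshold of 1 (1.39% of all genes did), while 7 of 8 were at an unadjusted p under 0.05 and DESeq2 called 0. Ereg came closest, at 446 CPM in the middle IL-17 library against 249 in the middle untreated one, without overlap and higher by 0.87 ± 0.031 on the log2 scale (edgeR adjusted p = 2.92e-17). The difference was 0.42 ± 0.068 for Tgfa, 0.33 ± 0.061 for Nrg1 and -0.25 ± 0.041 for Hbegf, each with the groups apart and an adjusted p of at most 0.05. Egfr, at 0.10 ± 0.043, did not pass (edgeR adjusted p = 0.135). Beside these, smooth muscle and pericyte markers summed to 84.4 to 88.8 CPM under IL-17 against 56.9 to 66.0 in untreated si-NC cells, and cardiomyocyte markers to 69.7 to 76.7 against 90.3 to 97.9, and their part was not tested.

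TGF-β cells held less of most ligands. Against untreated si-NC cells, 4 of 8 members fell (9.07% of all genes were lower and 21.5% changed). Ereg fell by 2.02 ± 0.044 on the log2 scale, from 233 to 251 CPM to 58.8 to 62.8 CPM, and the log2 fold changes of Hbegf and Tgfa were -1.27 ± 0.050 and -1.09 ± 0.080 (edgeR adjusted p = 1.55e-21, 1.09e-16 and 1.47e-11). Areg, the fourth, had 7, 10 and 0 estimated counts in TGF-β si-NC cells, each under the floor, so its level was at least 1.65-fold lower (edgeR adjusted p = 0.00452). The difference was -0.39 ± 0.047 for Egfr, 0.40 ± 0.079 for Nrg1 and 0.43 ± 0.15 for Btc, none past the threshold. The stimulus and the table cannot be told apart, since each stimulus has its own table. Markers of other cells moved with it as well, in both directions. The summed CPM of 5 endothelial markers was 46.8 to 52.6 in untreated and 88.5 to 89.96 in TGF-β si-NC libraries, with 2 of 5 higher and 1 lower. That of 6 macrophage markers was 56.8 to 60.8 and 149.7 to 158.0, with 3 of 6 higher and 1 lower, and none of these 11 markers was at 0 in a si-NC library of either table. Sums were lower under TGF-β, as most ligands were, for cardiomyocyte, mesothelial and epithelial, smooth muscle and pericyte, and Schwann markers. Cardiomyocyte markers summed to 90.3 to 97.9 and 5.33 to 5.88 CPM, with 2 of 4 tested lower. The 8 mesothelial and epithelial markers summed to 62.1 to 65.3 and 25.6 to 31.0, with 2 lower and 2 higher. Smooth muscle and pericyte markers summed to 56.9 to 66.0 and 40.1 to 41.4 CPM, with 1 of 3 higher. Schwann markers summed to 10.98 to 12.45 and 8.02 to 8.99, with 1 of 3 higher. The 7 fibroblast markers summed to 8858 to 8940 and 14190 to 14790 CPM, with 1 higher and 2 lower. Their part in the result was not tested.

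**Figure D4:**
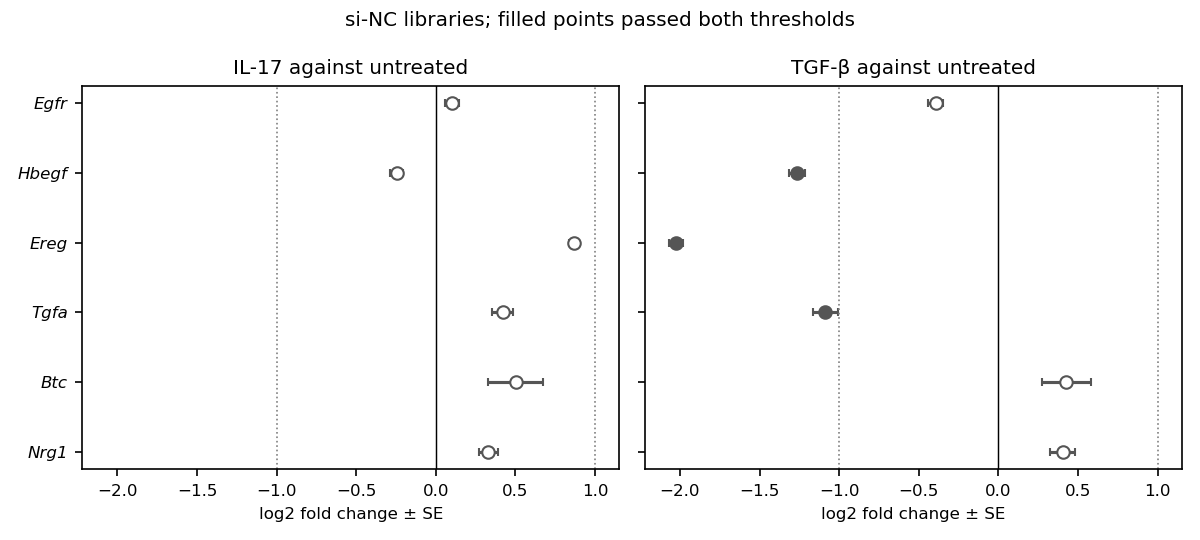
Log2 fold changes with SE of 6 members in si-NC cells, for IL-17 (left) and TGF-β (right) against untreated cells. Dotted lines mark the fold threshold of 1, and filled points passed it at an adjusted p of at most 0.05. The 3 filled points, Ereg, Hbegf and Tgfa, lie between -2.02 and -1.09 under TGF-β.

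In hearts, where the knockout was compared with Het controls, no member passed the test. Egfr was at 6.45, 5.36, 6.79 and 6.09 CPM in Het and 6.78, 7.77, 6.90 and 7.46 CPM in KO hearts, overlapping, with a difference of 0.23 ± 0.093 on the log2 scale. Hbegf ranged from 13.1 to 36.2 CPM in Het and from 13.9 to 33.5 CPM in KO hearts, overlapping, with a difference of -0.02 ± 0.36. Tgfa, Btc and Nrg1 held 10 to 34, 11 to 25 and 7 to 24 counts a heart. Areg was at 0 counts in 7 of 8 hearts, Ereg held 0 to 10 counts and Epgn 0 to 5, and these 3 were not tested. Of the 5 members tested, 0 were called (0% of 16675 genes) and edgeR's adjusted p was 1 for each, with Egfr and Btc at an unadjusted p of 0.034 and 0.0437. Over all genes 601 were at an unadjusted p under 0.05, and DESeq2 called 3 genes and no member.

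Among the other ERBB receptors, Erbb2, the partner receptor without a ligand of its own, was at 6.84 ± 0.41 CPM per kilobase in untreated si-NC cells, against 0.0829 for Erbb3 and 0.115 for Erbb4. In Het hearts Erbb3 was at 1.84 ± 0.26, Erbb2 at 1.59 ± 0.26, Egfr at 0.545 ± 0.054 and Erbb4 at 0.493 ± 0.14 CPM per kilobase. Erbb2 was higher with both siRNAs under IL-17, by 0.25 and 0.27 on the log2 scale and short of the threshold, and Erbb3 fell by 1.05 ± 0.32 with si-IAMP-2 (edgeR adjusted p = 0.0115). The remaining ligands Egf, Nrg2, Nrg3 and Nrg4 had group means of at most 0.141 CPM per kilobase in si-NC cells, Nrg3 was at 0, and none was called against si-NC. Het hearts held Nrg2 at 0.3755, Egf at 0.349 and Nrg4 at 0.2635 CPM per kilobase. Each was above every member ligand other than Hbegf, the next being Btc at 0.176.

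Of 11 genes of ligand shedding, 1 rose with si-IAMP-1 and 2 with si-IAMP-2 in untreated cells, where 4.76% and 10.7% of all genes were called. Under IL-17 3 and 2 rose (13.5% and 21.7% of all genes called) and under TGF-β 2 and 1 (4.36% and 7.51%), and none of the 11 fell. The counts are a description, since no test compared the list with other genes. Adam19, a metalloprotease of this group, rose with both siRNAs, by 1.23 ± 0.039 and 1.08 ± 0.039 in untreated cells and by 1.17 and 1.01 under IL-17. Rhbdf2, which encodes the iRHOM2 partner of the sheddase ADAM17, rose with both under IL-17, by 0.86 and 1.35, and Adam12 with both under TGF-β, by 0.66 and 0.68. Adam17 itself was called in none of the 6 comparisons with si-NC. Median log2 differences from si-NC over the 11 genes lay between 0.06 and 0.17, and those over all genes between -0.02 and 0.01.

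Of 22 feedback inhibitors of EGFR and MAPK signalling, 1 rose and 1 fell with si-IAMP-1, and 2 rose with si-IAMP-2, in untreated cells (4.76% and 10.7% of all genes called). Under IL-17, 2 rose and 3 fell with si-IAMP-1 and 3 rose and 4 fell with si-IAMP-2 (13.5% and 21.7%), and under TGF-β 1 rose and 1 fell with each (4.36% and 7.51%). These counts are a description too. Socs5, which promotes loss of EGFR, rose with both siRNAs in all 3 tables, by 1.31 and 1.33 on the log2 scale in untreated cells, 1.11 and 1.14 under IL-17 and 0.71 and 0.71 under TGF-β. Dusp1, a MAP kinase phosphatase, fell with both under IL-17, at -1.24 and -0.85, and under TGF-β, at -0.61 and -0.60, and Dusp4 fell with both under IL-17, at -1.05 and -0.62. With TGF-β against untreated si-NC cells 12 of the 22 fell, where 9.07% of all genes did, and 1 rose, with a median of -1.09 against 0.03 over all genes. None of 16 adaptor and MAPK genes was called with either siRNA in any table.

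Of 15 growth-factor response genes, Egr1, an immediate-early transcription factor, fell with both siRNAs in untreated cells, at log2 fold changes of -1.20 and -1.47, and under IL-17, at -1.26 and -1.38. Ccnd1, which encodes cyclin D1, fell with both in all 3 tables, at -1.85 and -2.04 in untreated cells, -1.94 and -2.09 under IL-17 and -1.02 and -1.04 under TGF-β. In the list as a whole, 4 fell and 0 rose with si-IAMP-1 and 2 fell and 1 rose with si-IAMP-2 in untreated cells (4.76% and 10.7% of all genes called). Under IL-17, 7 fell and 1 rose with si-IAMP-1 and 3 fell and 2 rose with si-IAMP-2 (13.5% and 21.7%), and under TGF-β 1 fell with si-IAMP-1 and 1 fell and 2 rose with si-IAMP-2 (4.36% and 7.51%). With TGF-β against untreated si-NC cells 5 fell and 1 rose (21.5% of all genes called). These counts were not tested against other genes.

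**Figure D5:**
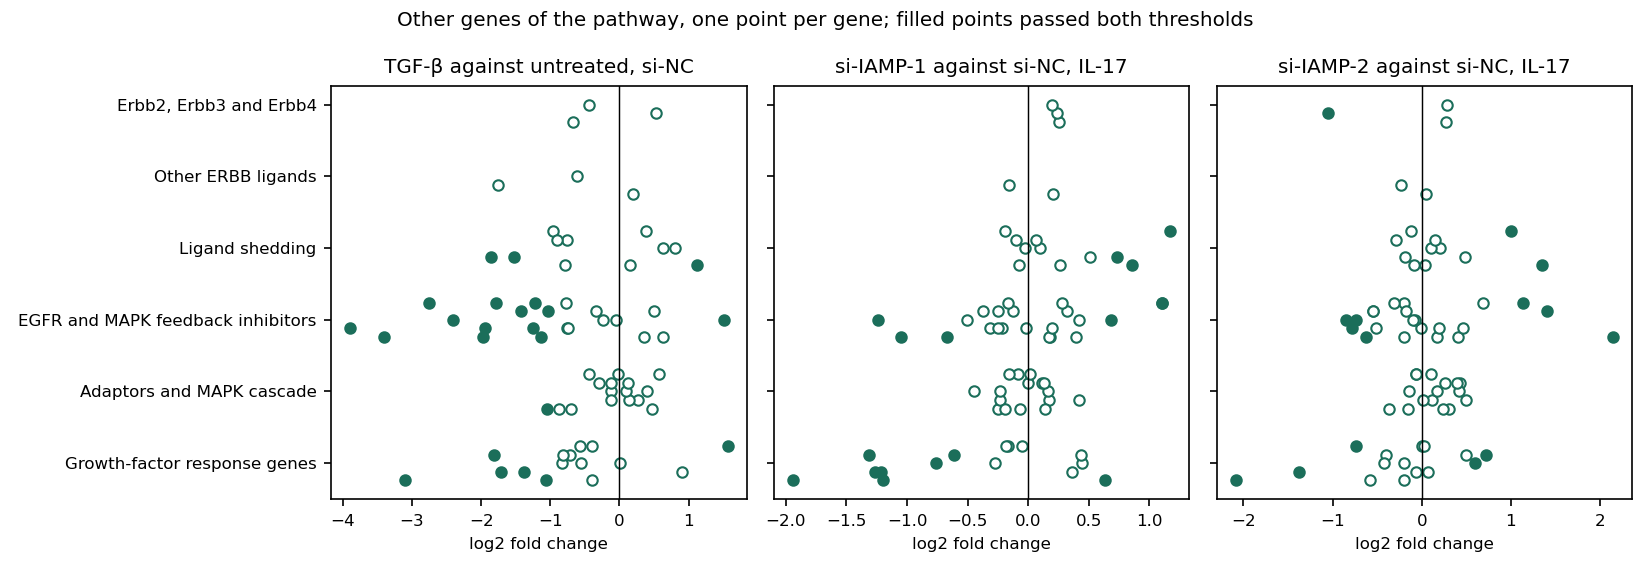
Log2 fold changes (x axis) of the genes of 6 lists (rows), 1 point a gene, spread vertically only to part overlapping points, for TGF-β against untreated si-NC cells and for each siRNA under IL-17. Filled points passed the fold threshold at an adjusted p of at most 0.05. In the row of feedback inhibitors 12 filled points lie left of 0 for TGF-β.

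The genes whose pattern was most like that of a member were sought over the 27 CF libraries, which share depth and stimulus groups, by Pearson's r of log2(CPM + 0.5) among 13330 genes. For Egfr they were Sdc1, Gda and Sh3kbp1, with r of 0.97, 0.97 and 0.96, and for Ereg S1pr1, Riok3 and Wipi2, each at 0.99. Among the genes most like Hbegf were Fermt2 and Rpa2, at 0.97 each, and Tgfa was most like Id3, Nr4a1 and Slc12a2, at 0.97, 0.97 and 0.96. Btc and Nrg1 had less close partners, Ppp1ccb, Sec23ip and Mrps9 at 0.85, 0.83 and 0.82 for Btc, and Prkcd, Kdm6b and Oacyl at 0.86, 0.84 and 0.83 for Nrg1. Between members, the highest r over the same libraries were 0.94 for Areg and Egfr, 0.91 for Ereg and Tgfa, 0.87 for Egfr and Ereg and 0.86 for Areg and Ereg. Of the 27 Areg values, 8 are at or under the floor. The lowest r was -0.43, for Btc and Hbegf, and Btc and Ereg stood at 0.08.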

How the data were processed

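RNA-Seq of CFs and hearts was analysed from 4 deposited tables. The authors trimmed reads with Cutadapt 3.7, checked them with FastQC 0.11.9, aligned them to GRCm38 with HISAT2 2.2.1 and quantified them with StringTie 2.1.4, without pooling replicates. The deposited values of the CF tables were treated as estimated counts, and those of hearts as counts. In CFs the most frequent value in genes seen in 1 library is 6, held by 16.99% to 22% of such genes. Annotation release and strand setting are not given in the sources used here, so reads of overlapping genes may be mixed. A floor of 3 read pairs was used, which was taken as 18 estimated counts in CFs and 3 counts in hearts. CPM used TMM library sizes, and CPM per kilobase the union of GENCODE vM21 exons, a scale that depends on which exons are used.

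Each table was fitted with edgeR 4.0.16 (R 4.3.3; TMM, filterByExpr, robust quasi-likelihood test), with Benjamini-Hochberg adjustment over all genes tested and standard errors from the F statistic. A gene was called where its adjusted p was at most 0.05 and its log2 fold change, in absolute value, at least 1 (untreated, hearts, stimuli, interactions) or 0.585 (log2 of 1.5, for IL-17 and TGF-β CFs). The study states these for untreated and IL-17 CFs only. Stimuli and interactions were fitted over 2 tables together. DESeq2 1.42.0, other scalings and filters, and leaving out each library were alternatives. The code was tested on simulated data. The members and lists were chosen with earlier results of these data known. Besides the members and the knockdown check, the text names by rule Erbb2, Erbb3 and Erbb4, the list genes past the threshold with both siRNAs in a table (at most 4 a list), and the 3 genes most like each member, of which 1 is not reported here. Adam17, Tnnt2, Col1a1, Myh6, Csf1r and C1qa were named after their values were seen. Figures used matplotlib 3.10.9.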

Additional observations from a re-analysis of the deposited data

Results flagged for a closer look

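The siRNA effect of a member on the log2 scale differed between a stimulated and the untreated table in 15 of 32 tests, at an edgeR adjusted p of at most 0.05. With IL-17 these were 3 and 2 of 8 members for si-IAMP-1 and si-IAMP-2 (2.13% and 1.89% of all genes). With TGF-β they were 5 of 8 for each (19.6% and 30.2% of all genes). Of the 15, 1 passed the fold threshold of 1. That 1 is Btc with si-IAMP-1 and IL-17, where the difference was -1.08. With IL-17 the others were Hbegf, at 0.39 with si-IAMP-1 and 0.30 with si-IAMP-2, Ereg at 0.47 with si-IAMP-1, and Nrg1 at 0.41 with si-IAMP-2. With TGF-β and si-IAMP-1 they were Egfr at 0.35, Hbegf at 0.46, Ereg at 0.38, Tgfa at 0.69 and Nrg1 at -0.66. With TGF-β and si-IAMP-2 they were Egfr at -0.47, Hbegf at 0.63, Ereg at -0.45, Btc at -0.85 and Nrg1 at -0.62. For Egfr and Ereg the TGF-β values thus have opposite signs for the 2 siRNAs, and each siRNA's comparison shares the si-NC libraries with the other's. The fall of 4930523C07Rik was also smaller under TGF-β than in untreated cells with both siRNAs, and its part was not tested.

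Among 16 heart groups of 4, a single KO heart stood apart from the others in Areg and in Epgn, at 0.211 CPM or 5 counts for each, where the 3 other KO hearts were at 0. Any group with 3 hearts at 0 and 1 above 0 is flagged, so a chance rate of about 1 in 20 groups does not hold here. The 5 counts are close to the floor of 3.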

How the results depend on the processing

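Swapping the fold thresholds (0.585 for 1 and 1 for 0.585) moved most counts of members called. In untreated cells they became 3 with si-IAMP-1, 4 with si-IAMP-2 and 4 between the siRNAs, under IL-17 they became 0, 2 and 1, and under TGF-β with si-IAMP-1 the count became 1, with Hbegf lost. IL-17 alone then called 1 member, Ereg, and the interactions of si-IAMP-1 and si-IAMP-2 with TGF-β called 2 and 3. The share of all genes called is not given at the swapped thresholds, so these counts describe the calls only. Under TGF-β with si-IAMP-1 the count of 2 became 1, with Epgn lost, with DESeq2, with at least 10 in every library, with a replicate block and with estimated counts divided by 6. Epgn's estimated counts were all under the floor. Leaving out 1 library gave 1 to 2 there, 0 to 1 with si-IAMP-2 under TGF-β, and 0 to 1 for the interaction of si-IAMP-1 with IL-17. The cause of these shifts was not tested. Values that changed sign when 1 library was left out were not called: Areg with si-IAMP-1 in untreated cells (-0.13 to 0.24), Nrg1 with si-IAMP-2 in untreated cells (-0.011 to 0.099), Egfr with si-IAMP-1 under IL-17 (-0.017 to 0.047), and Hbegf in KO hearts (-0.23 to 0.23). Counts of members moved by at most 1.5 times under 298 alternatives and by more under 27. Same-numbered CF libraries did not deviate together, with 0 of 9 correlations over 0.1 in each table, so the numbers do not pair the samples, and the replicate block changed no other count. No paired analysis was possible for hearts because their columns carry no replicate number. Depth limits Areg and Epgn, and Ereg in hearts, which sit near the floor. In hearts Tgfa, Btc and Nrg1 were low too, at 7 to 34 counts, while Hbegf held 312 to 903.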
